A study of Mus musculus with 14 samples.

Results

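C2C12 is an immortalised mouse myoblast line that leaves the cell cycle and fuses into myotubes when its growth serum is replaced by horse serum. The comparison described here asks what an adipogenic cocktail did to such cultures within 2 days: the 2 libraries of DM3 at day 2 were set against the 2 libraries of DM1 at day 2, 4 of the 14 RNA-seq libraries of the series. DM3 was DMEM with 2% horse serum plus insulin at 1 µg/ml, 3-isobutyl-1-methylxanthine (IBMX) at 0.5 mM, dexamethasone at 0.5 µM and rosiglitazone at 2 µM. DM1 was DMEM with 2% horse serum and none of these agents. Both media replaced a growth medium with 20% foetal calf serum (FCS) and were renewed every other day. The remaining 10 libraries, 2 in each of 5 groups, were the day 0 growth cultures, day 7 cultures in both of these media, and cultures in DM2 (10% FCS with the same cocktail) at days 2 and 7. The 4 libraries were chosen by medium and day alone. The labels do not say whether the 2 libraries of a group came from separate cultures, so the p-values below measure the spread between libraries, which may be technical. All 4 agents were added together, so their shares in any difference cannot be told apart.

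Each agent of the cocktail has a known receptor or enzyme target. Dexamethasone is a synthetic glucocorticoid that binds the glucocorticoid receptor, which enters the nucleus and acts on genes such as Fkbp5 and Tsc22d3. IBMX blocks phosphodiesterases, the enzymes that break down cyclic AMP (cAMP), a messenger that acts through protein kinase A and the transcription factor CREB. Rosiglitazone activates PPAR-gamma, the nuclear receptor that drives fat cell formation, and insulin acts through its own receptor and that of IGF-1. In myoblasts, differentiation is run by Myod1, Myf5 and Myog together with Mef2 factors, while D-type cyclins and the replication genes under E2F control mark cycling cells.

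Reads per gene were given as RSEM's expected counts, with 21907617 to 27564493 counts in each of the 4 libraries, so that 3 counts correspond to between 0.107 and 0.132 CPM (the count scaled to the size of its library). Library DM3 replicate 2 stood apart from the others: processed pseudogenes held 0.584% of its counts, against 2.34% in DM3 replicate 1 and 1.29% and 2.14% in the DM1 libraries, and 17779 genes had at least 1 count in it, against 20122 in DM3 replicate 1. The replicates' log2 values differed with an SD of 0.792 across genes in DM3 and 0.394 in DM1. Mitochondrial genes held 3.36% and 2.94% of the counts in the DM3 libraries and 2.35% and 2.58% in the DM1 libraries. Results that depend on DM3 replicate 2 are named as such where they are given. The skeletal muscle character of the cultures showed in both media: Cdh15, the muscle cadherin, had 503 and 591 CPM in the DM3 libraries and 446 and 440.1 CPM in the DM1 libraries, and Des, the muscle intermediate filament protein desmin, had 950.2 and 1133 CPM in DM3 and 1175 and 1110.1 CPM in DM1. Neither passed the test between the media. Of the 8 myoblast and myotube markers, 3 were higher in DM3, 1 was lower and 4, these included, were not called. The shares of all genes tested were 17.6% higher and 19.4% lower.

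Of 15973 genes tested, 2813 were higher (17.6%) and 3095 lower (19.4%) in DM3 than in DM1 at an adjusted p under 0.05, 37% in all, by the quasi-likelihood test of edgeR, adjusted after Benjamini and Hochberg (the test behind every adjusted p below). Below, a gene is said to be higher or lower, or to have risen or fallen, only where it passed this test, and for every such gene whose values are given the 2 DM3 libraries lay on 1 side of the 2 DM1 libraries. With a change of at least 2-fold, 678 genes were higher (4.24%) and 1118 lower (7%). The median log2 fold change of all genes tested was -0.02. Every list count at day 2 given below is to be read against the shares of 17.6% higher and 19.4% lower. Without DM3 replicate 2 and DM1 replicate 1, the 2 libraries with the lowest pseudogene shares, 1485 genes were higher and 1829 lower.

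The 3 marker genes given with this comparison, chosen with earlier results of these data known, separated the media widely. Their separation is a description and not an independent test. Prg4, which encodes lubricin, the lubricating glycoprotein of joint surfaces (chr1:150449412-150466165, GRCm38), had 248 and 178 CPM in the DM3 libraries and 1.13 and 0.713 CPM in the DM1 libraries. Fkbp5, the glucocorticoid-induced co-chaperone that restrains the glucocorticoid receptor (chr17:28399094-28517527), had 249 and 271 CPM in DM3 and 38.7 and 36.9 CPM in DM1. Ccnd1, which encodes cyclin D1, the partner of Cdk4 and Cdk6 at entry into the cell cycle (chr7:144929931-144939925), had 39.6 and 34.3 CPM in DM3 and 307 and 326 CPM in DM1. Prg4 and Fkbp5 were thus high in both DM3 libraries and Ccnd1 in both DM1 libraries, with no overlap. As means, Fkbp5 stood at 260.1 ± 15.1 CPM in DM3 and 37.8 ± 1.31 CPM in DM1 (SD, 2 libraries each), a log2 fold change of 2.78 ± 0.08 (SE) with an adjusted p of 1.08e-09. The log2 fold change was 7.85 ± 0.40 for Prg4, with an adjusted p of 1.27e-06, and -3.10 ± 0.10 for Ccnd1, with an adjusted p of 3.17e-09. In the day 0 growth cultures Ccnd1 had 385 and 399 CPM, so its level in DM1 at day 2 was nearer to that of growing cells than its level in DM3.

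**Figure D1:**
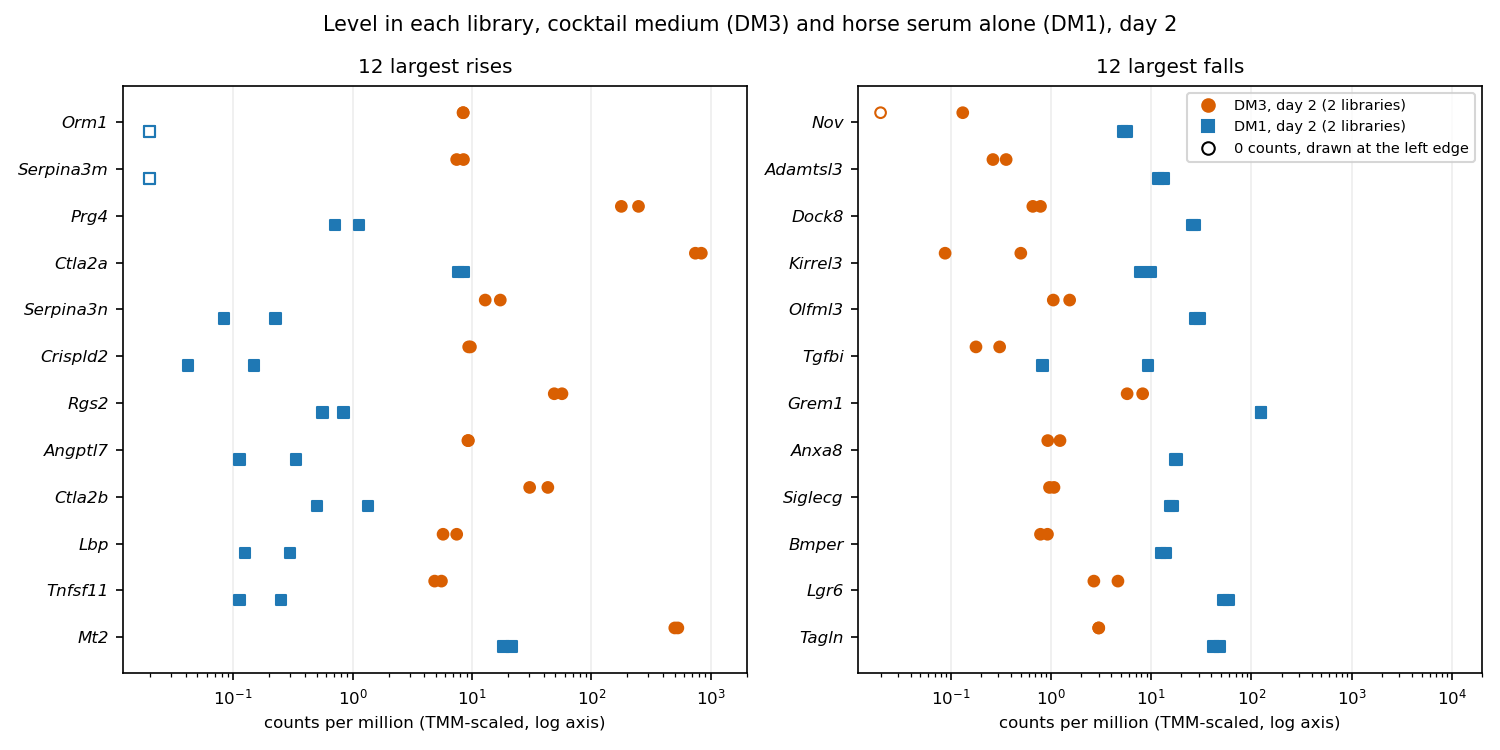
CPM (TMM-scaled, log axis) of the 12 genes with the largest rises (left) and the 12 with the largest falls (right) in each of the 2 DM3 libraries (circles) and the 2 DM1 libraries (squares) of day 2. Open symbols at the left edge are libraries with 0 counts. The media do not overlap for any of the 24 genes, which the choice of genes fixed, and Tgfbi is the gene whose DM1 libraries lie farthest apart, at 9.32 and 0.825 CPM.

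The 12 largest rises were led by genes of the acute phase and of secreted proteins. Orm1, an acute-phase plasma glycoprotein made chiefly by liver, had 427 counts over the DM3 libraries and 0 over the DM1 libraries, at least 70.7-fold higher against a floor of 3 counts per library. Serpina3m, a serine protease inhibitor of the same response, had 406 counts in DM3 and 0 in DM1, at least 66.8-fold higher. Its neighbour Serpina3n had 12.9 and 17.3 CPM in DM3 and 0.0840 and 0.225 CPM in DM1. Lbp, which carries bacterial lipopolysaccharide in plasma, had 5.72 and 7.45 CPM in DM3 and 0.126 and 0.300 CPM in DM1. Orm1 and the Serpina3 genes belong to clusters of near-identical copies, so reads could have been shared among them in the authors' counting.

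Ctla2a and Ctla2b, paired genes for inhibitors of cysteine proteases related to the cathepsin L propeptide, were both in this group. Ctla2a (chr13:60934155-60936625) had 832 and 742 CPM in DM3 and 8.48 and 7.73 CPM in DM1, a log2 fold change of 6.60 ± 0.15 with an adjusted p of 2.99e-10. Ctla2b had 43.2 and 30.4 CPM in DM3 and 0.504 and 1.35 CPM in DM1, and the 2 genes are similar enough that their reads may be split between them. Crispld2, a secreted protein that binds lipopolysaccharide, had 9.38 and 9.70 CPM in DM3 and 0.0420 and 0.150 CPM in DM1. Angptl7, a secreted angiopoietin-like protein known in the eye for its response to glucocorticoids, had 9.34 and 9.24 CPM in DM3 and 0.336 and 0.113 CPM in DM1. Tnfsf11, the ligand RANKL that drives osteoclast formation, had 5.55 and 4.87 CPM in DM3 and 0.252 and 0.113 CPM in DM1. Apart from Ctla2a and Ctla2b, the genes of these 2 paragraphs had at most 0.336 CPM in either DM1 library, close to the count floor, so the sizes of their folds are uncertain. Leaving out single DM1 libraries gave Angptl7 log2 fold changes of 6.30 (without DM1 replicate 1) and 4.77 (without replicate 2), against 5.37 with both, and gave Crispld2 7.67, Serpina3n 7.41, Lbp 5.66 and Ctla2b 6.18 without DM1 replicate 2. Tnfsf11 stood at 5.47 without DM1 replicate 1.

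Among the 12 largest falls were matrix proteins and secreted antagonists. Nov (also called CCN3), a matricellular protein of the CCN family, had 3 counts over the DM3 libraries and 275 over the DM1 libraries, 91.9-fold lower with a counting interval of 31.1 to 449 (95%). Adamtsl3, a secreted matrix protein of the ADAMTS-like family, had 0.264 and 0.358 CPM in DM3 and 11.9 and 13.3 CPM in DM1. Olfml3, a secreted olfactomedin-domain protein, had 1.06 and 1.54 CPM in DM3 and 30.6 and 27.4 CPM in DM1. Grem1, which encodes the secreted BMP antagonist gremlin 1, had 8.24 and 5.76 CPM in DM3 and 125 and 125 CPM in DM1. Bmper, another secreted BMP-binding protein, had 0.925 and 0.788 CPM in DM3 and 14 and 12.5 CPM in DM1.

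The rest of the group held membrane-associated and cytoskeletal proteins and 1 more matrix protein. Dock8, an exchange factor for the GTPase Cdc42 known mainly from leukocytes (chr19:24999534-25202432), had 0.661 and 0.788 CPM in DM3 and 27.0 and 25.8 CPM in DM1, a log2 fold change of -5.17 ± 0.29. Lgr6, a receptor for R-spondins that strengthens Wnt signalling, had 4.67 and 2.69 CPM in DM3 and 52.8 and 59.1 CPM in DM1. Tagln, the actin-binding protein transgelin of contractile cells, had 2.99 and 3.01 CPM in DM3 and 48.3 and 41.8 CPM in DM1. Siglecg, a sialic acid-binding receptor of leukocytes, had 0.969 and 1.07 CPM in DM3 and 16.5 and 15.5 CPM in DM1, while Anxa8, a calcium-dependent membrane-binding annexin, had 1.23 and 0.931 CPM in DM3 and 17.3 and 18 CPM in DM1. Kirrel3, a cell adhesion molecule related to nephrin partners, had 0.0881 and 0.501 CPM in DM3 and 9.95 and 7.88 CPM in DM1, with a log2 fold change of -4.14 without DM3 replicate 1 and -6.58 without DM3 replicate 2. Tgfbi, a TGF-beta-induced matrix protein, had 0.308 and 0.179 CPM in DM3 and 9.32 and 0.825 CPM in DM1. Its adjusted p of 0.026 became 0.0971 without DM3 replicate 1, 0.162 without DM3 replicate 2 and 0.221 without DM1 replicate 1, and its log2 fold change was -1.77 without DM1 replicate 1 and -5.25 without DM1 replicate 2. The log2 fold change of Nov was -10.16 without DM3 replicate 1 and -5.32 without DM3 replicate 2.

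**Figure D2:**
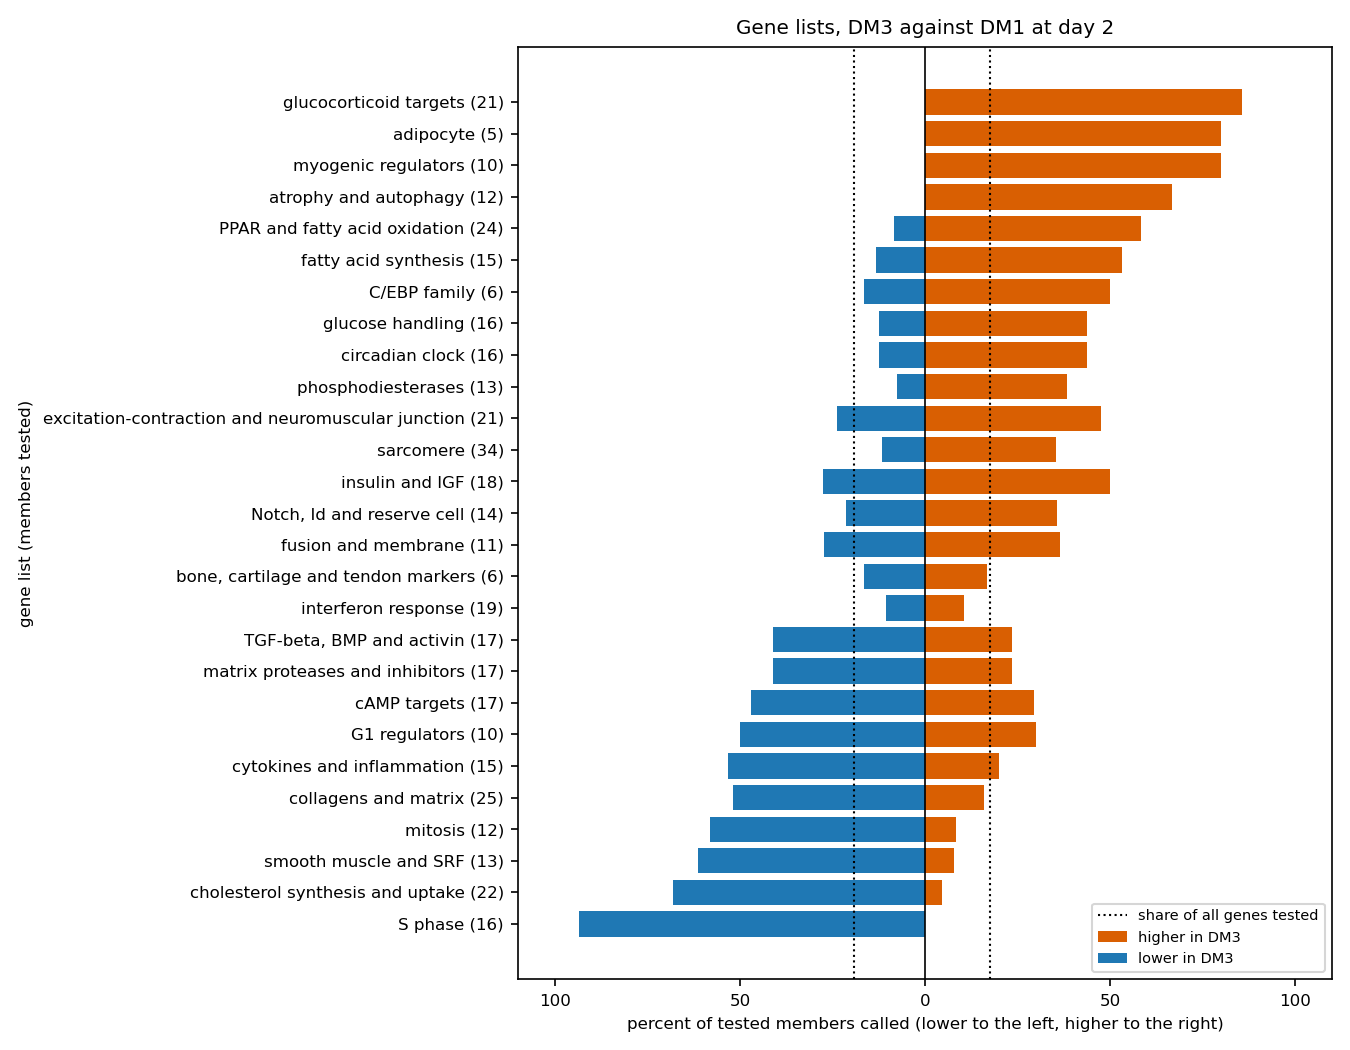
Percent of the tested members of each gene list called higher (right) and lower (left) in DM3 than in DM1 at day 2, with the number tested in brackets. Dotted lines mark the share of all genes tested, 17.6% higher and 19.4% lower. The glucocorticoid targets and myogenic regulators lean furthest to the higher side among lists of at least 10 tested genes, and the S phase list furthest to the lower side.

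Glucocorticoid target genes were the list with the highest share of rises. Of 21 tested, 18 were higher and none was lower, with a median log2 fold change of 2.28 against -0.02 over all genes and a background of 17.6% called higher. Without DM3 replicate 2 and DM1 replicate 1, 14 of them were higher. Mt2 and Mt1, which encode the metal-binding metallothioneins, had log2 fold changes of 4.69 ± 0.12 and 3.76 ± 0.14. Mt2 had 499 and 529 CPM in DM3 and 18.4 and 21.3 CPM in DM1. Mt1 had 307 and 330.3 CPM in DM3 and 21.7 and 25.2 CPM in DM1. Tsc22d3, the leucine zipper protein GILZ that mediates part of the anti-inflammatory action of glucocorticoids, had 377 and 353 CPM in DM3 and 52.4 and 49.9 CPM in DM1. Per1, a repressor of the circadian clock, had 178 and 200.3 CPM in DM3 and 34.2 and 34.9 CPM in DM1, an adjusted p of 2.52e-08.

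Further members of this list were picked for description after their values were seen. Ddit4, an inhibitor of the kinase complex mTORC1, had 234 and 216 CPM in DM3 and 44.0 and 48.9 CPM in DM1. Glul, glutamine synthetase, had 341 and 347 CPM in DM3 and 95.4 and 92.5 CPM in DM1. Hsd11b1, the enzyme that regenerates active glucocorticoid from its inert form, had 13.3 and 15.4 CPM in DM3 and 1.81 and 1.65 CPM in DM1. The 3 members that did not pass the test were Nr3c1, Dusp1 and Angptl4. Nr3c1, the glucocorticoid receptor itself, had 111 and 99.4 CPM in DM3 and 99.2 and 90.8 CPM in DM1, a log2 difference of 0.14 ± 0.10. Dusp1, a MAP kinase phosphatase, had 158 and 177 CPM in DM3 and 152 and 146 CPM in DM1, and Angptl4, an inhibitor of lipoprotein lipase, had 25.5 and 33.7 CPM in DM3 and 35.5 and 32.2 CPM in DM1, where the media overlapped. Zbtb16, Lcn2, Klf15 and Sult1a1 were also called higher, but all had 17 or fewer counts over the DM3 libraries, and none of the 4 kept its call without both low-pseudogene libraries. Their adjusted p-values there were 0.0834, 0.41, 0.441 and 0.708.

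The glucocorticoid receptor binds a palindrome of 2 half-sites, written here as GNACANNNTGTNC, which was searched on both strands in 300 bases around each RefSeq gene start of build GRCm38.p6 (250 before the start and 50 from it). It was present in 2 of the 16 list members with a promoter in the table, Mt1 and Sgk1, and in 0.537% of all genes in the table. Both promoters are printed 5′ to 3′ on the gene's strand with the match in capitals, to show where it lies relative to the start, the Mt1 window at chr8:94178839-94179138 (plus strand) and the Sgk1 window at chr10:21993640-21993939 (plus strand).
Mt1: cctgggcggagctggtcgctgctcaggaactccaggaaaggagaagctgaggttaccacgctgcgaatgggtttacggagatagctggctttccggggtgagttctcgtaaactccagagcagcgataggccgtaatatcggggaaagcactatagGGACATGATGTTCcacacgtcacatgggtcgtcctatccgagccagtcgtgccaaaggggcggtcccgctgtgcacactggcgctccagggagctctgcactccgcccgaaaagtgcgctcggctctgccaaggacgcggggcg
Sgk1: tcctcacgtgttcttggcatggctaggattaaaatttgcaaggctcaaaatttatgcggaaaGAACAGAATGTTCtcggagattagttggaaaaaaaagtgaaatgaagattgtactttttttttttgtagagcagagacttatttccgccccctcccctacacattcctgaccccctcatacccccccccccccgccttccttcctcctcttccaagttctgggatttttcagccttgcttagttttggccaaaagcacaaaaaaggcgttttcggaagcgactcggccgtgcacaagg
The match begins 94 bases before the start in Mt1 and 188 bases before it in Sgk1. Sgk1, a kinase that controls sodium channels, had 191 and 194 CPM in DM3 and 129 and 121 CPM in DM1, a much smaller rise than that of Mt1 on the same log2 scale, 0.62 against 3.76. A match is a description of these letters and does not show binding.

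**Figure D3:**
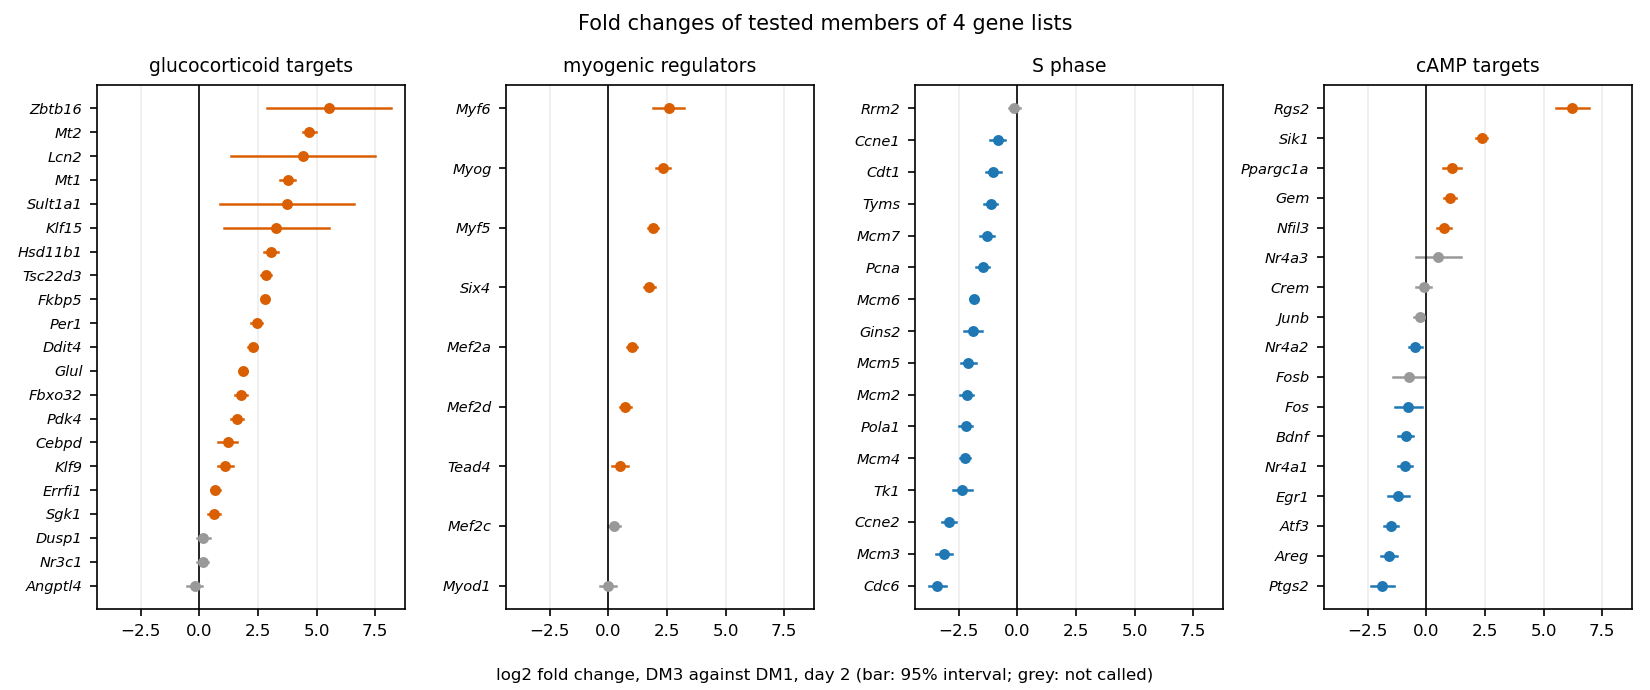
Log2 fold changes (points) with 95% intervals (bars) of tested members of 4 gene lists (1 myogenic regulator is not shown), DM3 against DM1 at day 2, orange for genes called higher, blue for genes called lower and grey for genes not called. Most glucocorticoid targets and myogenic regulators lie to the right of 0 and 15 of 16 S phase genes to the left of it with a call, while the cAMP targets spread to both sides. The wide bars of Zbtb16, Lcn2, Sult1a1 and Klf15 are those of genes with few counts.

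Genes known to respond to cAMP were found on both sides. Of 17 tested, 5 were higher and 8 lower, with a median log2 fold change of -0.47, and without both low-pseudogene libraries 5 were higher and 6 lower. Rgs2, a brake on G protein signalling, had 56.7 and 48.8 CPM in DM3 and 0.840 and 0.563 CPM in DM1, a log2 fold change of 6.24 ± 0.31 with an adjusted p of 3.93e-07. Sik1, a kinase that holds CREB coactivators outside the nucleus, had 346 and 394 CPM in DM3 and 72.6 and 71.1 CPM in DM1. Ppargc1a, the coactivator of mitochondrial genes, had 5.86 and 6.30 CPM in DM3 and 2.64 and 3.00 CPM in DM1, and these 3 genes together with Gem and Nfil3 were the members that rose. The members that fell included several immediate-early genes, whereas Fosb, Junb and Nr4a3 did not pass, with log2 differences of -0.73, -0.27 and 0.52. Ptgs2, the prostaglandin synthase cyclooxygenase-2, had 11.2 and 12.9 CPM in DM3 and 46.7 and 41.9 CPM in DM1. Egr1, a growth factor-induced zinc finger factor, had 205 and 221 CPM in DM3 and 494 and 480.0 CPM in DM1. Areg, the EGF receptor ligand amphiregulin, had 4.40 and 3.97 CPM in DM3 and 11.3 and 14.1 CPM in DM1. Atf3 and the orphan receptor gene Nr4a1 fell as well, by log2 fold changes of -1.51 ± 0.14 and -0.90 ± 0.13. Crem, whose cAMP-inducible product represses the pathway, had 7.27 and 6.91 CPM in DM3 and 7.68 and 7.65 CPM in DM1 and did not pass the test.

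The core of the CREB binding site, TGACG, was searched on both strands in the same windows. It was present in all 13 of the cAMP list members with a promoter in the table, against 23% of all genes in the table, so its presence cannot set members apart. The promoters of Rgs2, which rose, and Nr4a1, which fell, are shown because both hold the same letters (capitals). Their windows are chr1:144004100-144004399 (minus strand) and chr15:101266596-101266895 (plus strand).
Rgs2: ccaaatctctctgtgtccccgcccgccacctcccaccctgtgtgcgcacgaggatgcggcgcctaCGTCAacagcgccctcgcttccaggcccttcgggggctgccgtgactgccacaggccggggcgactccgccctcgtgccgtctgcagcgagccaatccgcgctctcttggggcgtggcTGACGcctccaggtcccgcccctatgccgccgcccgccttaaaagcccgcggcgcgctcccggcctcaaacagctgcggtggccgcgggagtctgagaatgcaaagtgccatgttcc
Nr4a1: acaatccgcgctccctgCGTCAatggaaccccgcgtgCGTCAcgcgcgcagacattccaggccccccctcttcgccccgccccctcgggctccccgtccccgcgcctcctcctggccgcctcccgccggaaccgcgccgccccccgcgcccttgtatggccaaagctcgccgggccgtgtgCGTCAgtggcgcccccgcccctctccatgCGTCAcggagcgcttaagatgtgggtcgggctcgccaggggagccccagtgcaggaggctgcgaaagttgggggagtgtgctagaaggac
The matches begin 185 and 67 bases before the start in Rgs2, and 233, 213, 69 and 40 bases before it in Nr4a1.

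Among phosphodiesterases, the enzymes that IBMX inhibits, 5 of 13 tested genes were higher and 1 was lower, against 17.6% and 19.4% of all genes. Pde4b, a cAMP-specific enzyme, had 253 and 261 CPM in DM3 and 57.2 and 56.6 CPM in DM1, an adjusted p of 4.07e-08. Pde1a, which is activated by calcium and calmodulin, had 3.92 and 3.40 CPM in DM3 and 0.714 and 0.638 CPM in DM1. Pde3b, Pde4d and Pde7a rose by log2 fold changes between 0.85 and 0.91. Pde1b had 13.1 and 11.2 CPM in DM3 and 18.7 and 18.4 CPM in DM1, a fall whose adjusted p was 0.0506 without DM3 replicate 2 and 0.13 without both low-pseudogene libraries. The other 4 listed phosphodiesterases, Pde1c, Pde4c, Pde7b and Pde9a, had at most 5 counts over the libraries of either medium and were not tested.

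Genes of PPAR action and fatty acid oxidation leaned to the higher side. Of 24 tested, 14 were higher and 2 lower, with a median log2 fold change of 0.30, and 4 were too low to test. Plin4, which coats lipid droplets, had 22.6 and 25.3 CPM in DM3 and 3.65 and 4.16 CPM in DM1. Pdk4, the kinase that shuts pyruvate dehydrogenase and a target of both PPARs and glucocorticoids, had 69.0 and 72.7 CPM in DM3 and 22.5 and 24.0 CPM in DM1. Cd36, a fatty acid transporter, had 2.64 and 1.72 CPM in DM3 and 0.546 and 0.450 CPM in DM1. Ucp3, a muscle mitochondrial uncoupling protein, had 34 counts over the DM3 libraries and 1 over the DM1 libraries, a ratio of 33.9 with a counting interval of 5.69 to 1378, and its log2 fold change was 4.0 without DM1 replicate 1 and 7.13 without DM1 replicate 2. Cpt1a and Plin2 were picked for description after their values were seen. Cpt1a, which admits long-chain fatty acids to mitochondria, had 226 and 251 CPM in DM3 and 105 and 99.0 CPM in DM1. Plin2, another droplet coat, had 369 and 407 CPM in DM3 and 192 and 191 CPM in DM1. Acot2, a mitochondrial acyl-CoA thioesterase, had 1.45 and 1.36 CPM in DM3 and 3.74 and 2.81 CPM in DM1 and was 1 of the 2 that fell.

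Most genes of mature fat cells were at or near 0 in both media. Of 15 adipocyte genes, 10 were too low to test, and Adipoq (adiponectin), Lep (leptin), Cfd and Adig had 0 counts in all 4 libraries. Of the 5 tested, 4 were higher and 0 lower, with a median log2 fold change of 1.77. The shares of all genes tested were 17.6% and 19.4%. Fabp4, the fatty acid-binding protein of fat cells, had 1.67 and 1.5 CPM in DM3 and 0.126 and 0.113 CPM in DM1, a log2 fold change of 3.68 ± 0.44 at a level near the count floor. Plin1, the perilipin of mature fat cells, had 1 count in DM3 and 0 in DM1. Pparg itself had 18.4 and 15.0 CPM in DM3 and 18.4 and 18 CPM in DM1 and did not pass the test. The media overlapped for Pparg. The C/EBP factors that act early in fat cell formation were higher: Cebpb had 138 and 163 CPM in DM3 and 33.8 and 30.8 CPM in DM1. Cebpd had 6.43 and 8.34 CPM in DM3 and 3.53 and 2.85 CPM in DM1. Cebpa, which acts later, had 18.1 and 23.7 CPM in DM3 and 6.76 and 5.51 CPM in DM1. Lpl, lipoprotein lipase, which muscle also makes, had 200.3 and 168 CPM in DM3 and 62.9 and 69.1 CPM in DM1. In bulk RNA, fewer cells of a type and less RNA per cell cannot be told apart, here or in the results that follow.

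Fatty acid and cholesterol synthesis leaned to opposite sides, a contrast between lists that was not tested. Of 15 fatty acid and triglyceride synthesis genes tested, 8 were higher and 2 lower (median log2 fold change 0.42), whereas of 22 cholesterol synthesis and uptake genes 1 was higher and 15 lower (median -0.49). Scd2, a stearoyl-CoA desaturase, had 3722 and 3873 CPM in DM3 and 1938 and 1878 CPM in DM1. Lpin1, a phosphatidate phosphatase, had 41.3 and 29.5 CPM in DM3 and 14.5 and 18.1 CPM in DM1, and Gpam, the acyltransferase that starts glycerolipid synthesis, had 53.1 and 57.1 CPM in DM3 and 28.5 and 27.8 CPM in DM1. Fasn, fatty acid synthase, had 577 and 717 CPM in DM3 and 574 and 556 CPM in DM1 and did not pass the test, nor did the regulator Srebf1, with 109 and 129 CPM in DM3 and 101 and 95.9 CPM in DM1. On the cholesterol side, Idi1, isopentenyl-diphosphate isomerase, had 73.2 and 68.7 CPM in DM3 and 143 and 130.2 CPM in DM1, a log2 fold change of -0.94 ± 0.14 with an adjusted p of 0.000321. Without both low-pseudogene libraries, 9 of the 22 were lower.

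In the insulin and IGF list, 9 of 18 tested genes were higher and 5 lower. Igfbp5, the IGF-binding protein induced in differentiating myoblasts, had 3999.8 and 3949.9 CPM in DM3 and 1643 and 1700.1 CPM in DM1. Igf2, an autocrine ligand of myoblast differentiation, had 11.1 and 11.0 CPM in DM3 and 4.24 and 5.18 CPM in DM1, and H19, the noncoding RNA of the same imprinted locus, had 5462 and 6373 CPM in DM3 and 2389 and 2271 CPM in DM1. Pik3r1, the regulatory subunit of phosphoinositide 3-kinase, had 118 and 119 CPM in DM3 and 42.1 and 42.8 CPM in DM1. Irs1, the adaptor that links the insulin receptor to that kinase, had 41.1 and 45.1 CPM in DM3 and 112 and 110.2 CPM in DM1, while its relative Irs2 had 41.0 and 46.5 CPM in DM3 and 31.5 and 28.8 CPM in DM1. The rise of Irs2 lost its call without DM3 replicate 2 (adjusted p = 0.061) and without DM1 replicate 2 (adjusted p = 0.0748). Igf1 had 0.132 and 0.609 CPM in DM3 and 1.39 and 1.01 CPM in DM1, a fall whose adjusted p was 0.0997 without DM3 replicate 1 and 0.138 without DM1 replicate 1, and whose log2 value was -3.13 without DM3 replicate 2. The number of members called lower was 2 without DM1 replicate 1 and 2 without DM3 replicate 1.

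Of 16 glucose handling genes, 7 were higher and 2 lower, against 17.6% and 19.4% of all genes tested. Pfkfb3, which makes the activator of phosphofructokinase, had 36.7 and 47.4 CPM in DM3 and 9.49 and 10.1 CPM in DM1. Txnip, a brake on glucose uptake, had 478 and 365 CPM in DM3 and 180.2 and 209 CPM in DM1. Slc2a4, the insulin-responsive glucose transporter GLUT4, had 1.41 and 1.83 CPM in DM3 and 0.588 and 0.450 CPM in DM1 and lost its call without DM1 replicate 2, at an adjusted p of 0.0698. Slc2a1, the basal transporter GLUT1, had 92.9 and 102 CPM in DM3 and 112 and 111 CPM in DM1 and did not pass the test. Ldha, lactate dehydrogenase A, fell to 404 and 436 CPM in DM3, against 677 and 704 CPM in DM1, and the day 0 cultures had 1416 and 1236 CPM. Without both low-pseudogene libraries 3 members were higher.

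Regulators of muscle differentiation were higher under the cocktail. Of 10 tested, 8 were higher and none was lower, with a median log2 fold change of 1.38. Myog, the myogenin that commits myoblasts to differentiation (chr1:134289989-134292548), had 204 and 231 CPM in DM3 and 47.2 and 39.9 CPM in DM1, a log2 fold change of 2.32 ± 0.14 with an adjusted p of 2.68e-07. The day 0 cultures had 1.74 and 1.87 CPM, so both media lay well above growing cells and DM3 lay the higher. Myf5, which is expressed in proliferating myoblasts, had 215 and 199.6 CPM in DM3 and 57.8 and 51.2 CPM in DM1. Myf6, the factor of late myotubes, had 4.27 and 3.26 CPM in DM3 and 0.504 and 0.750 CPM in DM1. Six4, a homeodomain factor upstream of the myogenic genes, had 256 and 229.8 CPM in DM3 and 73.1 and 71.1 CPM in DM1. Myod1 had 59.0 and 73.1 CPM in DM3 and 66.7 and 66.7 CPM in DM1, and Mef2c had 30.2 and 25.3 CPM in DM3 and 23.5 and 22.9 CPM in DM1. These 2 did not pass the test, and the 95% interval of the log2 difference of Myod1 ran from -0.37 to 0.35.

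The structural genes of muscle were less uniform. Of 34 sarcomere genes, 12 were higher and 4 lower, with a median log2 fold change of 0.31. Myh3, the embryonic myosin heavy chain, had 126 and 157 CPM in DM3 and 65.5 and 55.1 CPM in DM1. Mybph, a myosin-binding protein, had 114 and 134 CPM in DM3 and 37.2 and 38.8 CPM in DM1. Ttn, titin, had 633 and 901 CPM in DM3 and 287 and 306 CPM in DM1. Acta1, skeletal actin, had 221 and 288 CPM in DM3 and 200.5 and 182 CPM in DM1 and did not pass, at an adjusted p of 0.0651, which was 0.0159 without DM3 replicate 1. Actc1, cardiac actin, had 78.7 and 90.5 CPM in DM3 and 56.4 and 34.4 CPM in DM1, and did not pass either. Tpm1, a tropomyosin, had 499.9 and 499.6 CPM in DM3 and 747 and 716 CPM in DM1 and fell. Myh1, Myh7 and Myl4 were lower too, and the adjusted p of Myh7 was 0.0615 without DM1 replicate 1, while that of Myl4 was 0.0602 without both low-pseudogene libraries. Myh1, which shares sequence with the adult myosins beside it, had 2 counts in DM3 and 33 in DM1, a ratio of 16.6 with a counting interval of 4.23 to 142, of which 26 were in DM1 replicate 1, and it had an adjusted p of 0.0879 without that library and 0.0711 without DM3 replicate 2. Without DM1 replicate 1, 2 sarcomere genes were lower.

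Membrane excitation and the neuromuscular junction showed members on both sides, with 10 of 21 higher and 5 lower. Musk, the kinase that gathers acetylcholine receptors at the synapse, had 85.7 and 107 CPM in DM3 and 23.6 and 22.3 CPM in DM1. Ryr1, the calcium release channel of the sarcoplasmic reticulum, had 96.6 and 112 CPM in DM3 and 39.4 and 39.3 CPM in DM1, and Atp2a1, its calcium pump, had 62.8 and 79.3 CPM in DM3 and 32.7 and 30.6 CPM in DM1. Chrna1, the alpha subunit of the muscle acetylcholine receptor, had 279 and 291 CPM in DM3 and 580.5 and 583 CPM in DM1. Its partner subunit Chrnb1 had a log2 fold change of -0.59 and Rapsn, which anchors the receptor, of -0.80, whereas the embryonic subunit Chrng was higher, with a log2 fold change of 0.74, and the subunit Chrnd did not pass the test. The calcium channel subunits Cacna1s and Cacng1 were the other 2 members called lower. Of 11 fusion and membrane genes, 4 were higher and 3 lower, against 17.6% and 19.4% of all genes tested. Of the 3 called lower, Cav3 had 0 counts over the DM3 libraries and 4 over the DM1 libraries. That call, at an adjusted p of 0.0498, rests on too few counts for a ratio. Gm7325 (myomerger, one of the fusogens of myoblasts) had 22.7 and 25.2 CPM in DM3 and 11.0 and 8.93 CPM in DM1, whereas Tmem8c (myomaker, the other fusogen) had 28.9 and 30.8 CPM in DM3 and 28.7 and 27.3 CPM in DM1 and did not pass.

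Of 14 genes of the Notch pathway, Id factors and reserve cells, 5 were higher and 3 lower. Dll1, a Notch ligand, had 26.8 and 30.6 CPM in DM3 and 5.04 and 5.36 CPM in DM1. Notch3, a receptor, had 996 and 1337 CPM in DM3 and 440.4 and 399.7 CPM in DM1, and Hey1, a target of the pathway, had 39.1 and 39.3 CPM in DM3 and 15.1 and 13.2 CPM in DM1. Cd34, a surface marker of quiescent muscle stem cells, had 31.8 and 28.7 CPM in DM3 and 113 and 101 CPM in DM1. Id2, an inhibitor of myogenic factors, had 8.63 and 6.34 CPM in DM3 and 14.7 and 20.8 CPM in DM1. Pax7, the stem cell factor, had 0.308 and 0.501 CPM in DM3 and 0.0840 and 0.338 CPM in DM1, too low to separate the media.

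Replication genes formed the list with the highest share of falls. Of 16 S phase genes, 15 were lower and none was higher, with a median log2 fold change of -1.99, and the same count of 15 was obtained without both low-pseudogene libraries. Cdc6, which loads the replicative helicase onto origins (chr11:98907801-98923940), had 2.29 and 2.54 CPM in DM3 and 25.6 and 25.6 CPM in DM1, a log2 fold change of -3.40 ± 0.16 with an adjusted p of 4.86e-08. Mcm3, a subunit of that helicase, had 11.3 and 13.9 CPM in DM3 and 107 and 111 CPM in DM1. Ccne2, cyclin E2, had 2.86 and 2.33 CPM in DM3 and 20.8 and 18.4 CPM in DM1. The day 0 growth cultures had 47.1 and 44.4 CPM of Cdc6, 176 and 167 CPM of Mcm3 and 32.7 and 30.7 CPM of Ccne2, above both media. Tk1, the thymidine kinase of the salvage pathway, had 12.1 and 13.0 CPM in DM3 and 62.1 and 65.1 CPM in DM1, and Pcna, the sliding clamp, had 38.0 and 45.2 CPM in DM3 and 121 and 110.1 CPM in DM1. The exception was Rrm2, a subunit of ribonucleotide reductase, with 203 and 184 CPM in DM3 and 197 and 225 CPM in DM1.

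E2F factors bind sites that can be written TTTCCCGC, TTTCGCGC, TTTGCCGC or TTTGGCGC, and these letters were searched on both strands in the promoter windows. At least 1 of them was present in 7 of the 13 S phase genes with a promoter in the table, against 2.6% of all genes in the table. Cdc6 and Mcm3, the members with the largest falls, are shown with the matches in capitals, at chr11:98907901-98908200 (plus strand) and chr1:20820263-20820562 (minus strand).
Cdc6: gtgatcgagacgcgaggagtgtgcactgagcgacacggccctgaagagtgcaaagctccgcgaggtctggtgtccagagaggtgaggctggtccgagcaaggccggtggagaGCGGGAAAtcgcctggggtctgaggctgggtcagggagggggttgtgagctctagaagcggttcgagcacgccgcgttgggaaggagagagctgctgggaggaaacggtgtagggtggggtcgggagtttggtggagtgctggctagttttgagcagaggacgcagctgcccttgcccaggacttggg
Mcm3: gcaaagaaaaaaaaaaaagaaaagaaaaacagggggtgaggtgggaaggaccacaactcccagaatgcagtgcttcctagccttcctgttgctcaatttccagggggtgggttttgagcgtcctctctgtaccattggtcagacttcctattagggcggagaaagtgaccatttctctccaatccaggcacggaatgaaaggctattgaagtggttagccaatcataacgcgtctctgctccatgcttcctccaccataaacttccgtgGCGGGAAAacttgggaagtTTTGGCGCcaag
The match begins 138 bases before the start in Cdc6. In Mcm3 the 2 matches begin 19 and 38 bases after the start.

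Of 12 mitosis genes tested, 7 were lower and 1 was higher, with a median log2 fold change of -0.36 and none of the falls reaching 2-fold. Mki67, the marker of cycling cells, had 221 and 252 CPM in DM3 and 433 and 436 CPM in DM1. Top2a, topoisomerase II alpha, had 372 and 359 CPM in DM3 and 581 and 579.7 CPM in DM1. Kif11, a spindle motor, had 80.0 and 81.0 CPM in DM3 and 124 and 122 CPM in DM1. Ccnb2, cyclin B2, was the member called higher, with 102 and 109.8 CPM in DM3 and 90.1 and 85.9 CPM in DM1, and its adjusted p was 0.181 without DM3 replicate 2. Among G1 regulators, 5 of 10 were lower and 3 higher. Beside Ccnd1, Cdk6 had 133 and 131 CPM in DM3 and 258 and 259 CPM in DM1. Ccnd2, cyclin D2, had 61.1 and 57.1 CPM in DM3 and 96.7 and 98.4 CPM in DM1, while Rb1, the retinoblastoma protein that restrains E2F, had 151 and 137 CPM in DM3 and 88.2 and 82.3 CPM in DM1. Ccnd3 and the inhibitor Cdkn1b were called higher by log2 fold changes of 0.32 and 0.39, and both calls were lost without 1 or more single libraries. The adjusted p of Ccnd3 was 0.265 without DM3 replicate 2, and that of Cdkn1b was 0.491 without DM3 replicate 1. Cdkn1a, the inhibitor p21, had 303 and 260.5 CPM in DM3 and 239 and 247 CPM in DM1 and did not pass.

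Col1a1 and the proteoglycan genes Dcn and Lum were among the matrix genes that were lower under the cocktail. Of 25 collagens and matrix genes tested, 13 were lower and 4 higher, against 19.4% and 17.6% of all genes tested. Col1a1, the alpha 1 chain of fibrillar collagen I, had 64.2 and 69.6 CPM in DM3 and 352 and 258 CPM in DM1. Dcn, the collagen-binding proteoglycan decorin, had 1.01 and 1.15 CPM in DM3 and 15.4 and 16.0 CPM in DM1, and Col8a1, a network-forming collagen, had 12 and 9.17 CPM in DM3 and 129.6 and 125 CPM in DM1. The fibrillar collagen genes Col3a1 and Col5a1 did not pass the test, with log2 differences of -0.10 and -0.08 and libraries that overlapped between the media. Lum, the related proteoglycan lumican, had 0 counts in DM3 and 68 in DM1, at least 11.6-fold lower. Fn1 and Tnc were picked after their values were seen. Fn1, fibronectin, had 3379 and 4234 CPM in DM3 and 8726 and 8869.5 CPM in DM1, and Tnc, tenascin C, had 232 and 273 CPM in DM3 and 924 and 892 CPM in DM1. Basement membrane collagen IV lay on the other side: Col4a1 had 514 and 615 CPM in DM3 and 387 and 343 CPM in DM1. Col4a2 had 490.1 and 626 CPM in DM3 and 371 and 329.5 CPM in DM1, and its adjusted p was 0.0527 without both low-pseudogene libraries. Spp1, the secreted phosphoprotein osteopontin, had 673 and 374 CPM in DM3 and 1838 and 2437 CPM in DM1.

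Among matrix proteases and inhibitors, 4 of 17 were higher and 7 lower, against 17.6% and 19.4% of all genes tested. Adamts1, a secreted protease, had 86.3 and 88.6 CPM in DM3 and 27.8 and 30.1 CPM in DM1, and Mmp2, gelatinase A, had 342 and 381 CPM in DM3 and 208 and 201 CPM in DM1. Another protease gene, Adamts5, fell, with 25.7 and 26.9 CPM in DM3 and 43.5 and 36.5 CPM in DM1. The inhibitors Timp1 and Timp3 were lower as well, Timp1 with 78.5 and 79.1 CPM in DM3 and 262 and 257 CPM in DM1. Timp3 had 101 and 91.6 CPM in DM3 and 216 and 231 CPM in DM1. In the list of smooth muscle genes and targets of the serum response factor, 8 of 13 were lower, all by at least 2-fold, and 1 was higher. Acta2, smooth muscle actin, had 201 and 243 CPM in DM3 and 755 and 735 CPM in DM1. Ankrd1, Cyr61 and Ctgf, which respond to the coactivators YAP and MRTF and were picked after their values were seen, fell by log2 fold changes of -1.37, -1.47 and -1.19. Srf itself did not pass, with a log2 difference of -0.06. Of 17 genes of TGF-beta, BMP and activin signalling, 4 were higher and 7 lower, against the same shares of all genes, 17.6% and 19.4%. Besides Grem1, Inhba, the activin A subunit, had 6.25 and 6.69 CPM in DM3 and 15.3 and 17.2 CPM in DM1. Smad7, an inhibitor of the pathway by which it is itself induced, had 6.61 and 4.90 CPM in DM3 and 13.6 and 13.7 CPM in DM1. Fst, the activin-binding follistatin, had 9.86 and 7.55 CPM in DM3 and 3.74 and 3.71 CPM in DM1.

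Cytokine genes fell in 8 of 15 cases and rose in 3, against 19.4% and 17.6% of all genes tested, with a median log2 fold change of -1.03. Cxcl12, a chemokine that attracts stem cells and lymphocytes, had 5.81 and 4.58 CPM in DM3 and 31.1 and 27.7 CPM in DM1. Cx3cl1, the membrane-bound chemokine fractalkine, had 2.91 and 3.40 CPM in DM3 and 27.2 and 23.7 CPM in DM1. Il1rl1, the receptor of interleukin-33, had 0.484 and 0.358 CPM in DM3 and 5.79 and 5.78 CPM in DM1. The 3 that rose were Il6, Saa3 and Cxcl1. Il6, which muscle cells secrete, had 15.0 and 12.1 CPM in DM3 and 0.588 and 1.35 CPM in DM1, with a log2 fold change of 4.52 without DM1 replicate 2 against 3.79 with it. Saa3, an acute-phase serum amyloid, had 1.5 and 1.61 CPM in DM3 and 0.168 and 0.113 CPM in DM1. Interferon response genes stayed mostly without a call: of 19 tested, 2 were higher and 2 lower, below the background shares of 17.6% and 19.4%. Their median log2 fold change was -0.27. For 11 of the 19 both DM3 libraries lay below both DM1 libraries, against 33.8% of all genes, and for 4 above them, against 33.5%. At day 7, 15 were lower and 1 higher, against 25.1% and 22.7% of all genes. Stat2, a transducer of type I interferon signals, had 74.3 and 74.2 CPM in DM3 and 31.4 and 33.3 CPM in DM1, and Ifit2, an interferon-induced protein, had 5.90 and 7.12 CPM in DM3 and 24.1 and 24.0 CPM in DM1.

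Genes of muscle wasting and autophagy were higher in 8 of 12 cases and lower in none, with a median log2 fold change of 0.49. Fbxo32, the ubiquitin ligase atrogin-1 of wasting muscle, had 254 and 251 CPM in DM3 and 73.8 and 73.1 CPM in DM1. Trim63, the partner ligase MuRF1, had 0.661 and 0.680 CPM in DM3 and 0.546 and 0.713 CPM in DM1 and did not pass. Foxo3, a factor that drives both, had 143 and 156 CPM in DM3 and 67.6 and 63.2 CPM in DM1. Of 16 circadian clock genes, 7 were higher and 2 lower, against 17.6% and 19.4% of all genes tested. Hlf, an output factor of the clock, had 21.1 and 19 CPM in DM3 and 2.02 and 1.84 CPM in DM1. Dbp, a related output factor, had 62.8 and 67.2 CPM in DM3 and 33.6 and 31.7 CPM in DM1, and Nr1d1, the repressor REV-ERB alpha, had 118 and 136 CPM in DM3 and 62.5 and 66.5 CPM in DM1. Per3 had 15.9 and 14.4 CPM in DM3 and 32.0 and 35.4 CPM in DM1, opposite to Per1. Arntl, the activator BMAL1, had 19.6 and 19.6 CPM in DM3 and 20.1 and 19.1 CPM in DM1 and did not pass.

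Markers of other lineages were also examined. Adgre1, a macrophage marker, had 0 counts in all 4 libraries, Ptprc, the leukocyte marker, had 0 in DM3 and 1 in DM1, and Epcam, an epithelial marker, had 1 in DM3 and 0 in DM1. Other members did have counts. Cd68, a macrophage marker, had 40 and 50 in the DM3 libraries and 29 and 30 in the DM1 libraries. Cdh5, an endothelial marker, had 17 and 17 in DM3 and 24 and 41 in DM1. Krt8, an epithelial marker too low to test, had 1 count in DM3 and 15 in DM1, a ratio of 15.0 with a counting interval of 2.31 to 633. The summed level of the 5 testable macrophage, endothelial and epithelial markers was 3.96 and 2.51 CPM in the DM3 libraries and 2.94 and 4.39 CPM in the DM1 libraries, and none of the 5 was called. Of 13 bone, cartilage and tendon markers, 6 could be tested. Runx2, the bone factor, had 84.7 and 82.3 CPM in DM3 and 58.1 and 64.4 CPM in DM1, and Sox9, the cartilage factor, had 61.6 and 52.6 CPM in DM3 and 82.4 and 89.9 CPM in DM1. Without both low-pseudogene libraries the adjusted p of Runx2, called higher, was 0.129 and that of Sox9, called lower, 0.0669, and Runx2 had 0.0845 without DM1 replicate 1. The 2 testable adipocyte markers, Fabp4 and Plin1, summed to 1.72 and 1.5 CPM in DM3 and 0.126 and 0.113 CPM in DM1. Smooth muscle markers summed to 206 and 249 CPM in DM3 and 809 and 782 CPM in DM1, with 3 of 5 lower. Acta2 alone made up most of these sums, with 201 and 243 CPM in DM3 and 755 and 735 CPM in DM1. Lmod1 and Myh11 were not called. The log2 difference of Lmod1 was -0.02, and Myh11 had 16 counts in DM3 and 3 in DM1, a ratio of 5.32 with a counting interval of 1.52 to 28.5. The part of any other cell type in the differences between the media was not tested.

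The day 7 cultures, which share no library with those of day 2, allowed the difference between DM3 and DM1 to be compared between the days. It differed for 5582 of 15973 genes (34.9%), 2596 of them with a larger value (DM3 minus DM1) at day 7 and 2986 with a smaller one. When libraries were scaled by their totals alone, the split was 1797 and 4097. Of 3774 genes called at both days, 2895 had the same direction and 879 the opposite one. At day 7 alone, 22.7% of all genes tested were higher in DM3 and 25.1% lower. Among the 228 named genes, 150 differed between the days and 41 were called in opposite directions. Many of these genes were named for large called differences at day 2, values that the change between the days includes. Their share therefore cannot be set against that of all genes.

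In the glucocorticoid list 15 of its 21 members differed between the days, and at day 7 it had 8 members higher and 7 lower with a median log2 fold change of 0.03. Fkbp5 had 260.1 and 253 CPM in the day 7 DM3 libraries and 296 and 299 CPM in the day 7 DM1 libraries, a log2 fold change of -0.21, against 2.78 at day 2. Mt2 had 1422 and 1398 CPM in DM3 and 1066 and 1212 CPM in DM1 at day 7. Ctla2a had 876 and 770.3 CPM in DM3 and 1505 and 1300.3 CPM in DM1 at day 7, opposite in direction to day 2. In the S phase list, 15 of 16 members differed between the days, with a median of -0.11 at day 7 against -1.99 at day 2, and Cdc6 had 0.845 and 1.11 CPM in DM3 and 1.32 and 1.09 CPM in DM1 at day 7.

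Sarcomere genes were further apart at day 7 than at day 2. At day 7, 27 of 34 were higher and none was lower, with a median log2 fold change of 2.99 against 0.31 at day 2, and the difference between the days was called for 27. Myh3 had 3128 and 3273 CPM in the day 7 DM3 libraries and 168 and 119.6 CPM in the day 7 DM1 libraries, and Acta1 had 13398 and 12529 CPM in DM3 and 561 and 422 CPM in DM1. Chrna1, which was lower in DM3 at day 2, had 465 and 441 CPM in DM3 and 490.3 and 380.0 CPM in DM1 at day 7 and did not pass there. Some large differences were present at both days, of which 5 were picked after their values were seen. Sik1, Pde4b, Igfbp5, Grem1 and Dock8 had log2 fold changes of 2.24, 2.48, 1.25, -4.10 and -5.21 at day 7, and for none of these 5 was the difference between the days called. Prg4 had 434 and 477 CPM in DM3 and 14.6 and 8.81 CPM in DM1, at day 7, with a log2 fold change of 5.28 that was smaller than at day 2 (adjusted p = 0.0026).

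**Figure D4:**
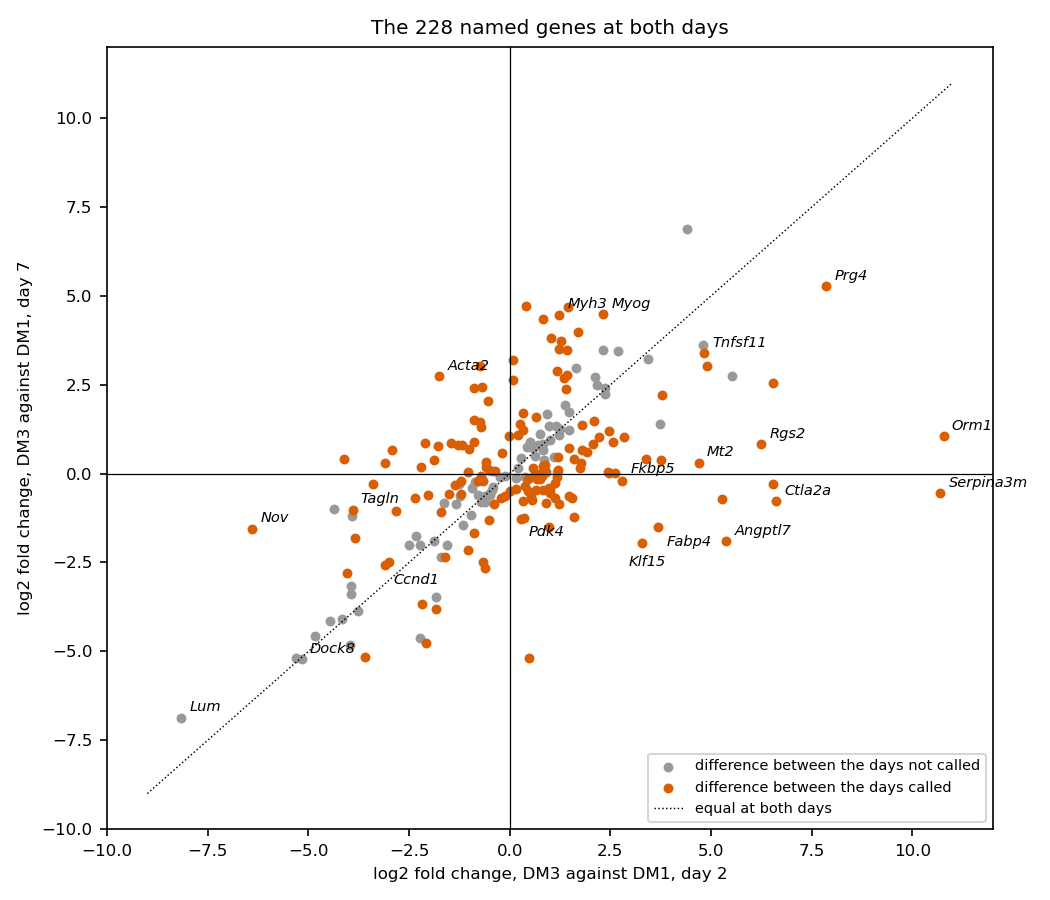
Log2 fold change of DM3 against DM1 at day 2 (x axis) and day 7 (y axis) for the 228 named genes, orange where the difference between the days was called and grey where it was not. The dotted line marks equal values. Fkbp5, Mt2, Ctla2a and Rgs2 lie far to the right with day 7 values between -0.77 and 0.82, Myh3 and Myog lie above the dotted line, and Dock8 lies on it. Fitted values of genes with 0 counts in a group, such as Orm1, Serpina3m and Lum, depend on a small added count and are not bounds.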

How the data were processed

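Polyadenylated RNA of C2C12 cultures was sequenced on strand-specific libraries, per the labels' protocols. The authors aligned reads with STAR 2.5.1b and estimated expected counts per gene with RSEM 1.2.31 on GRCm38.p5, per the series' design text and the submitters' processing notes. The deposited table holds these expected counts for 49671 genes, not normalized. They can be fractional and were rounded to whole numbers here.

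Groups were taken from the labels. All 14 libraries were fitted in 1 model of 7 groups (7 residual degrees of freedom) with edgeR 4.0.16 (R 4.3.3, limma 3.58.1): TMM scaling, edgeR's default filter on low counts (15973 genes kept), and the robust quasi-likelihood test with Benjamini-Hochberg adjustment at 0.05. CPM values are TMM-scaled, and the SE of a log2 fold change is its size over the root of F. The scripts were tested on simulated data. Counting intervals and floors (3 counts per library) cover counting error only.

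Genes were named by a rule: the 3 markers, the 12 largest rises and falls of at least 5 CPM in the higher medium without overlap (pseudogenes and predicted genes left out), and in each of 31 lists the fixed anchor genes and up to 5 called members per direction. All other genes in the text were picked after their values were seen. The comparison, gene lists and named members were chosen with earlier results of these data known. Alternatives were other scalings and filters, DESeq2 1.42.0, a fit of the 4 libraries alone, leaving out libraries, a replicate block, the pseudogene share as a covariate or pseudogenes removed, and 2 chosen after seeing the data, namely leaving out both low-pseudogene libraries and crossing the replicate numbers in the block. Coordinates are GRCm38. Promoters are from RefSeq, GRCm38.p6. Some genes are not reported here by name, but stay in the fit and in the counts of their lists.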

Additional observations from a re-analysis of the deposited data

Results flagged for a closer look

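For 879 of the 3774 genes called at both days, the difference between DM3 and DM1 had opposite directions at day 2 and day 7, 430 of them higher at day 2 and 449 lower. Of the 41 named genes of this kind, 5 differed at least 2-fold between the media at both days, and 2 more, Ankrd1 and Ung, did so among the genes picked after their values were seen. Each is given with the change of its log2 fold change (day 7 minus day 2) and the adjusted p of that change from edgeR's quasi-likelihood test.

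Acta2, smooth muscle actin, had a log2 fold change of -1.75 at day 2 and 2.74 at day 7, a change of 4.48 (adjusted p = 8.61e-08). At day 7 it had 2264 and 2028 CPM in DM3 and 360.3 and 284 CPM in DM1. Ankrd1, a target of YAP and MRTF, had -1.37 at day 2 and 2.56 at day 7, a change of 3.93 (adjusted p = 7.39e-08). Ung, the uracil-DNA glycosylase, had -3.86 and 1.85, a change of 5.71 (adjusted p = 9.83e-07). The other 4 genes were higher in DM3 at day 2 and lower at day 7. Angptl7 had log2 fold changes of 5.37 and -1.91, a change of -7.28 (adjusted p = 2.92e-06), with 5.16 and 5.79 CPM in DM3 and 15.6 and 25.5 CPM in DM1 at day 7. Fabp4 had 3.68 and -1.51, a change of -5.19 (adjusted p = 3.01e-05), with 0.719 and 1.15 CPM in DM3 and 1.85 and 3.51 CPM in DM1 at day 7. Pdk4 had 1.61 and -1.23, a change of -2.84 (adjusted p = 4.56e-07), with 35.3 and 40.0 CPM in DM3 and 77.0 and 99.8 CPM in DM1 at day 7. Klf15, a glucocorticoid-induced factor of muscle metabolism, had 3.27 and -1.95, a change of -5.22 (adjusted p = 0.00436), but its day 2 value rests on 12 counts in DM3 and 1 in DM1.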

How the results depend on the processing

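The number of genes changed at day 2 (5908) was 3314 without both low-pseudogene libraries, of which 3224 were also called with all libraries. It ranged from 4095 to 6394 when single libraries were left out. The number changed at least 2-fold (1796) ranged from 1537 to 2885 over the same settings, the highest without DM3 replicate 1, where 696 were higher and 2189 lower. The number of genes whose difference depended on the day (5582) ranged from 5238 to 6132 over the settings that kept all 14 libraries. It went below and above this range in settings that left libraries out. With the 4 libraries alone it could not be fitted. Scaling by library totals alone gave 2316 higher and 3602 lower genes. The other settings gave 4798 to 6306 changed genes. The cause was not tested.

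Of 3798 results for single genes over 14 settings, 3612 kept their side of the threshold, 174 lost their call and 12 gained one. With a call in either fit, 0 turned in direction. A result without a call in both fits was counted as kept whatever its direction. In some setting, 48 genes lost a call. Same-numbered deviations of the 2 media correlated at -0.595 and the labels name no shared source, so the numbers were not taken to pair the libraries. A replicate block gave 5811 changed genes, 1747 at least 2-fold and 5570 depending on the day. A block with the numbers crossed gave 5906. Depth limits genes near 3 counts per library. With 2 libraries a group, DM3 replicate 2 and its composition weigh on every DM3 mean.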

Other observations

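Outside the gene lists, several regulators differed between the media at day 2. They were picked after their values were seen, and all passed edgeR's quasi-likelihood test. Maf, a transcription factor of the AP-1 superfamily, had 38.6 and 30.0 CPM in DM3 and 2.77 and 2.63 CPM in DM1. Sox8, a transcription factor found in muscle satellite cells, had 33.1 and 32.7 CPM in DM3 and 3.27 and 3.68 CPM in DM1. Vdr, the vitamin D receptor, had 243 and 277 CPM in DM3 and 42.0 and 38.9 CPM in DM1. Hgf, the growth factor that activates satellite cells, had 139 and 154 CPM in DM3 and 35.5 and 38.6 CPM in DM1. Ehd3, a protein of endosome recycling, had 155 and 177 CPM in DM3 and 17.2 and 16.2 CPM in DM1, and Xdh, the xanthine dehydrogenase of purine breakdown, had 84.9 and 97.6 CPM in DM3 and 16.8 and 17.1 CPM in DM1. Rbm24, a splicing factor of muscle, had 23.0 and 23.6 CPM in DM3 and 3.86 and 3.98 CPM in DM1, with log2 fold changes of 2.57 at day 2 and 4.46 at day 7.

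Genes best known from neurons and from Wnt signalling were among those that fell, again picked after their values were seen. Nefl and Nefm encode neurofilament subunits. Nefl had 19.9 and 20.7 CPM in DM3 and 187 and 204 CPM in DM1, and Nefm had 3.48 and 3.44 CPM in DM3 and 41.6 and 46.9 CPM in DM1. Tubb3, a tubulin of neurons, had 8.41 and 10.3 CPM in DM3 and 67.7 and 65.1 CPM in DM1. The ligands Wnt7b and Wnt10a had log2 fold changes of -2.81 and -2.74, and the secreted Wnt modulator Dkk2 had 3.79 and 3.40 CPM in DM3 and 43.6 and 44.1 CPM in DM1. Egr2 and Egr3, relatives of Egr1, had log2 fold changes of -3.05 and -3.75. Ung, which removes uracil from DNA, had 0.617 and 0.322 CPM in DM3 and 5.88 and 7.69 CPM in DM1. Its log2 fold change was -3.86 at day 2 and 1.85 at day 7.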
